A study of Mus musculus with 6 samples.

Results

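The insulin-like growth factor (IGF) axis was examined in C2C12 myotubes after knockdown of *Dj1*. Its members were the rows of the deposited probe report named, ignoring case, IGF1, IGF2, IGF1R, IGF2R, IGFBP2, IGFBP3, IGFBP4, IGFBP5, IGFBP6 or IGFBP7, and each probe was kept as a separate measurement. All 10 genes were found, out of 30854 distinct names in the file, with 23 of its 45281 probes. C2C12 is a mouse myoblast line whose cells fuse into multinucleated myotubes in low-serum medium. Myoblasts received siRNA at 60 nM, with a scramble sequence or directed to *Dj1*, were switched to differentiation medium after 48 h and were differentiated for 4 days. Each group had 3 samples, for a total of 6 arrays on a single Illumina mouse BeadChip, and each group rests on 1 siRNA. Nothing in the sources used here says that the samples of a group came from separate cultures, so the p-values measure the spread between these samples, which may be technical.

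IGF1 and IGF2 are secreted peptides that act through the receptor tyrosine kinase IGF1R, which feeds the PI3K-Akt and Ras-ERK cascades. IGF2R, also the cation-independent mannose 6-phosphate receptor, takes up IGF2 for degradation in lysosomes, and the IGF binding proteins hold the ligands outside the cell and can limit or prolong their action. In skeletal muscle the axis is known for promoting myoblast differentiation and fibre growth, and differentiating C2C12 cells are known to make their own IGF2 and to secrete IGFBP5.

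Values are background-corrected, quantile-normalized signals on the log2 scale, in which a difference of 1 is a 2-fold change. A probe counted as detected on an array when its detection p was under 0.05, and the 17890 probes detected on at least 3 of the 6 arrays were tested with limma, with p adjusted over all of them. A probe is called when its adjusted p was under 0.05. With scramble siRNA 16985, 17399 and 18179 probes were detected, against 18704, 18857 and 18408 after knockdown, and the standard error over the beads of a probe had a median of 11.3, 8.30 and 8.66 against 7.17, 6.36 and 5.88. The beads were noisier on each of the scramble arrays, and the part of this in the results was not tested. With 3 arrays per group, each value has limited precision. Normalized signals correlated across tested probes with r of 0.982 to 0.988 among the scramble arrays, 0.9903 to 0.992 among the DJ-1 siRNA arrays and 0.958 to 0.973 between the groups, where probes are not independent replicates.

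The targeted gene was measured first. *Dj1* is listed as PARK7 with 1 probe, Park7 ILMN_2728754, whose log2 signal was 13.59, 13.37 and 13.63 with scramble siRNA and 12.48, 12.49 and 12.15 after knockdown. Every array with DJ-1 siRNA was lower than the lowest with scramble siRNA, the mean change was -1.16 (limma, adjusted p = 0.00344, standard error 0.14), and 44.7% of the scramble signal was left. For any single probe, 3 arrays against 3 cannot give an exact two-sided permutation p below 0.1.

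Of the 23 IGF axis probes, 18 passed the filter on detection, and these covered all 10 genes. After *Dj1* knockdown 15 of the 18 were called, against 30.1% of all tested probes. Of these, 4 were higher, where 16.5% of all tested probes were called higher, and 11 were lower, where 13.6% were called lower. The groups of all 18 were apart, where 48.5% of all tested probes had groups that did not overlap. In the signals as deposited, before background correction and normalization, 13 of the 18 had groups that did not overlap, which held for 36.2% of all tested probes. The median log2 fold change of the 18 was -0.49, beside 0.05 over all tested probes, a background median that was 0.0254 without background correction, 0.000337 with no filter and 0.00264 with the strict filter. The called rises lay in Igf2, Igf2r and Igfbp2 and the called falls in Igf1, Igfbp3, Igfbp4, Igfbp5, Igfbp6 and Igfbp7, while no probe of Igf1r was called. Without DJ-1 siRNA replicate 1 the number called was 8, and the share of all tested probes called was 14.3%. Of the 8, 2 were higher and 6 lower, where 7.75% and 6.55% of all tested probes were.

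**Figure D1:**
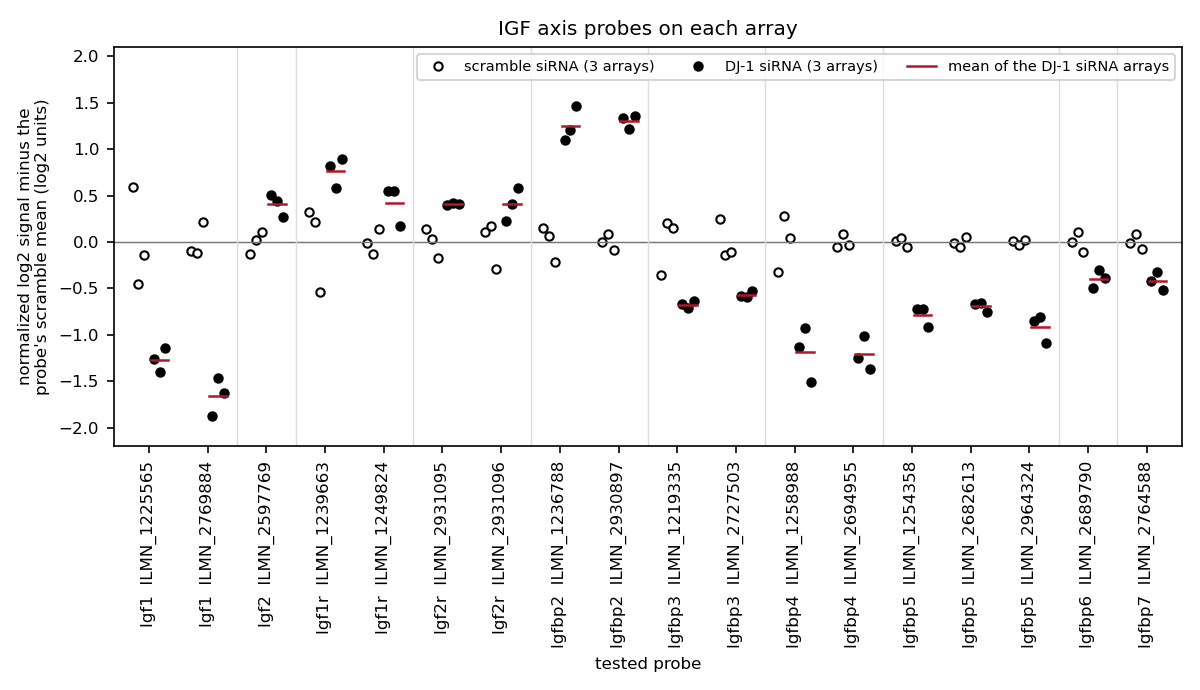
Normalized log2 signal of each tested IGF axis probe on each array (y axis, log2 units) after subtraction of the mean of its scramble arrays, with open circles for the 3 scramble siRNA arrays, filled circles for the 3 DJ-1 siRNA arrays and a line at the DJ-1 siRNA mean. The filled circles of Igfbp2 lie about 1.25 to 1.31 above 0 on average, and those of Igf1 lie lowest, with means of -1.27 and -1.66.

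Among the ligands, Igf1 fell and Igf2 rose. Igf1, the ligand that also mediates growth hormone action, gave log2 signals of 8.17, 8.15 and 8.49 with scramble siRNA and 6.40, 6.81 and 6.64 after knockdown on probe ILMN_2769884. The lowest scramble array lay 1.35 above the highest DJ-1 siRNA array. The change was -1.66 (limma, adjusted p = 0.00277, standard error 0.15), which left 31.7% of the scramble signal. On probe ILMN_1225565 the signals were 9.05, 7.997 and 8.31 with scramble siRNA and 7.20, 7.06 and 7.31 after knockdown. Here the scramble arrays were spread more widely, with replicate 1 the highest, and still lay above every DJ-1 siRNA array. The change was -1.27 (limma, adjusted p = 0.0145, standard error 0.26), and the intervals of the Igf1 probes overlapped (95% confidence interval -2.02 to -1.30 for ILMN_2769884 and -1.89 to -0.64 for ILMN_1225565). The call of ILMN_1225565 was lost without DJ-1 siRNA replicate 1 (-1.27, adjusted p = 0.0502 from limma) and with an unmoderated test, which takes each probe's own variance, within a range of adjusted p from 0.000704 to 0.0653 over 14 alternatives, and without background correction the change of ILMN_2769884 was -0.94 and that of ILMN_1225565 was -0.81.

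A further Igf1 probe, ILMN_2647594, which the file assigns to a different Igf1 transcript from the other probes, was not tested. It was detected on 2 scramble arrays and on no DJ-1 siRNA array, with log2 signals of 5.66, 5.81 and 4.87 with scramble siRNA and 4.90, 4.78 and 4.75 after knockdown. Its groups overlapped, since scramble replicate 3 lay below DJ-1 siRNA replicate 1. No change is given for it.

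Igf2, the ligand that muscle cells make as they differentiate, has 1 probe, ILMN_2597769, with log2 signals of 13.65, 13.80 and 13.89 with scramble siRNA and 14.29, 14.22 and 14.05 after knockdown. In the deposited values this was an intensity of 12493, 14565 and 14695 with scramble siRNA and 20464, 21376 and 15908 after knockdown. All DJ-1 siRNA arrays were above all scramble arrays, by a margin of 0.16 between the nearest arrays. The rise was 0.40 (limma, adjusted p = 0.0393, standard error 0.12), or 1.32-fold. This call was lost whenever any 1 array was left out, with changes of 0.34 to 0.47 and adjusted p of 0.0528 to 0.137 from limma, and it held in 5 of the 14 alternatives. It was also lost with no filter (adjusted p = 0.0883 from limma) and with an unmoderated test. H19, the noncoding RNA whose gene neighbours Igf2 and shares its imprinted control, was the brightest probe of the pathway list and was picked after its values were seen. Its probes ILMN_1256343 and ILMN_2906728 were at -0.04 (adjusted p = 0.753 from limma) and 0.10 (adjusted p = 0.565 from limma) and were not called. The deposited intensities of ILMN_2906728 were 26144.9 to 29046.5 with scramble siRNA and 30043.5 to 38740.2 after knockdown. These groups did not overlap, as for 36.2% of all tested probes. ILMN_1256343 read 38994.7 to 48285.6, where the brightest probe of each array read 44329.6 to 52359.5. Whether a signal so near the brightest is compressed was not tested.

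For the receptors the mean change was above 0 on all 4 probes, and 1 of them was called. Igf1r, the signalling receptor, gave log2 signals of 8.91, 8.79 and 9.07 with scramble siRNA and 9.47, 9.47 and 9.10 after knockdown on probe ILMN_1249824. DJ-1 siRNA replicate 3 lay 0.03 above scramble replicate 3, so that the groups nearly met, and in the deposited intensities, 638, 605 and 655 with scramble siRNA and 835, 910 and 592 after knockdown, they overlapped. The change was 0.42 (limma, adjusted p = 0.0639, standard error 0.14). Probe ILMN_1239663 was detected on 2 of the scramble arrays and on all DJ-1 siRNA arrays, with log2 signals of 6.04, 5.93 and 5.17 with scramble siRNA and 6.53, 6.30 and 6.60 after knockdown. Its change was 0.76 (limma, adjusted p = 0.0514, standard error 0.24). Neither probe passed the threshold, which does not show that Igf1r did not differ. ILMN_1249824 passed it in 5 of 14 alternatives, among them without DJ-1 siRNA replicate 3 (0.54, adjusted p = 0.0447 from limma), and ILMN_1239663 in 4 of 13, among them without scramble replicate 1 (0.95, adjusted p = 0.0351 from limma), with adjusted p from 0.0223 to 0.191 and 0.0331 to 0.150 over those alternatives. Both passed it without background correction, with an offset of 50 and with a trend in the prior variance, and ILMN_1249824 also with the strict filter. The change of ILMN_1239663 was 0.26 without background correction, 0.50 with an offset of 50 and 0.49 without scramble replicate 3.

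Igf2r, the clearance receptor of IGF2, gave log2 signals of 9.38, 9.27 and 9.06 with scramble siRNA and 9.63, 9.65 and 9.64 after knockdown on probe ILMN_2931095. The DJ-1 siRNA arrays spanned 0.02 from lowest to highest and lay above the scramble arrays, and the rise was 0.41 (limma, adjusted p = 0.0353, standard error 0.11). Probe ILMN_2931096 gave 8.30, 8.37 and 7.91 with scramble siRNA and 8.42, 8.60 and 8.78 after knockdown, a change of the same size with a wider spread (0.41, standard error 0.16, adjusted p = 0.102 from limma), and was not called. In the deposited intensities the groups overlapped on both Igf2r probes. Of single arrays left out, the call of ILMN_2931095 held only without scramble replicate 1, and without the other arrays in turn the adjusted p lay between 0.0726 and 0.103 from limma, with changes of 0.32 to 0.42. It was also lost with no filter (adjusted p = 0.0799 from limma) and with an unmoderated test. ILMN_2931096 was called in none of the 14 alternatives, with a smallest adjusted p of 0.0503 from limma, and its change was 0.26 without scramble replicate 3.

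**Figure D2:**
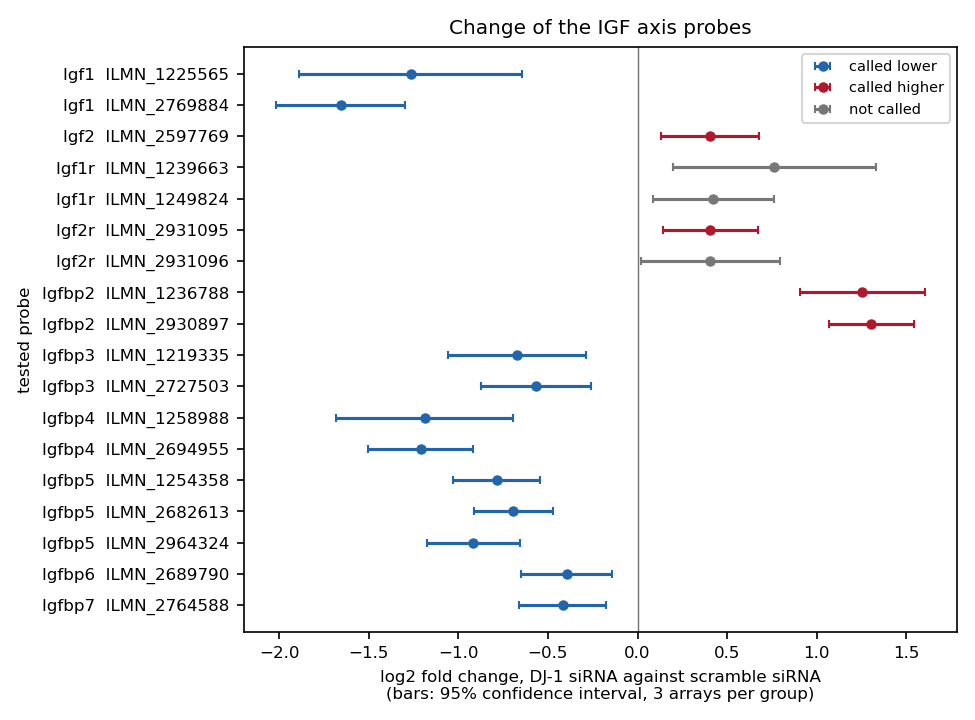
Log2 fold change of each tested IGF axis probe (x axis, DJ-1 siRNA against scramble siRNA, 3 arrays per group, bars for the 95% confidence interval), in red where called higher, blue where called lower and grey where not called. The probes of Igf1, Igfbp4 and Igfbp2 lie farthest from 0, and the only grey points are both Igf1r probes and Igf2r ILMN_2931096.

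Among the binding proteins Igfbp2 rose, while each tested probe of Igfbp3, Igfbp4, Igfbp5, Igfbp6 and Igfbp7 fell. The 250 bases before the start are shown for Igfbp2, Igfbp4 and Igfbp5, because every probe of these genes was called in all 14 alternatives, Igfbp2 higher and the others lower. The sequences were taken from RefSeq on GRCm38.p6, read 5′ to 3′ on the strand of the gene, and both strands were searched for short motifs, with matches in capitals. The motif of the E-box, which MyoD and other helix-loop-helix factors bind, was spelled CANNTG. The motif of the TATA box was spelled TATAAA. The motif of the GC box was spelled GGGCGG. The Igfbp2 window lies at chr1:72824230-72824479 on the plus strand, the Igfbp4 window at chr11:99040994-99041243 on the plus strand and the Igfbp5 window at chr1:72874866-72875115 on the minus strand. Those of Igfbp2 and Igfbp5 end where the RefSeq record of the gene begins, and that of Igfbp4 ends at a transcript start inside its record.
Igfbp2: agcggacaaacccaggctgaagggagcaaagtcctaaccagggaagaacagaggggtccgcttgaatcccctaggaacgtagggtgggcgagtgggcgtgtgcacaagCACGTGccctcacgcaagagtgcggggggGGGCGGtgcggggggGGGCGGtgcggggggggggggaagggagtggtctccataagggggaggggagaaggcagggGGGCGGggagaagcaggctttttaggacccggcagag
Igfbp4: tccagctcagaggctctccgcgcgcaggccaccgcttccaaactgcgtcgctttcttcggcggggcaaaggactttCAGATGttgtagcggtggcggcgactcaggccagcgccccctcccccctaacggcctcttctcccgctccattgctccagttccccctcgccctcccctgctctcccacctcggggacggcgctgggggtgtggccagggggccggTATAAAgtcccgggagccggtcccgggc
Igfbp5: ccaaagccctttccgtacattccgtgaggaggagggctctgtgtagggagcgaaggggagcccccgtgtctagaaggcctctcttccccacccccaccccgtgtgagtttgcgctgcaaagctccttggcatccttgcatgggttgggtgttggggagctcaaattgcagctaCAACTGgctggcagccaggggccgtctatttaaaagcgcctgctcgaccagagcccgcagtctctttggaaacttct
The Igfbp2 window shown holds 1 E-box and 3 GC boxes, with first bases 142 and 113, 98 and 37 bases before its start. RefSeq lists a second Igfbp2 start, whose window at chr1:72825137-72825386 holds 1 E-box, at 55 bases before it, and no GC box. The Igfbp4 window holds an E-box at 174 and a TATA box at 28 bases before the start, and the Igfbp5 window holds a single E-box at 77 bases before it. No matches overlapped. RefSeq windows were found for all 10 members, 14 in all, of which 9 held an E-box, 6 a GC box and 2 a TATA box. Of the 32851 windows of the same length in the table, 66.2% held an E-box, 32.7% a GC box and 12.4% a TATA box. A match is a run of letters and not a measured site.

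Igfbp2, a binding protein that also binds integrins, gave log2 signals of 8.999, 9.09 and 8.91 with scramble siRNA and 10.33, 10.22 and 10.36 after knockdown on probe ILMN_2930897. On probe ILMN_1236788 they were 8.51, 8.42 and 8.15 with scramble siRNA and 9.45, 9.57 and 9.82 after knockdown. Every DJ-1 siRNA array was above every scramble array on each probe, and the nearest arrays of the groups differed by 1.13 on ILMN_2930897 and 0.95 on ILMN_1236788. The rise was 1.31 (limma, adjusted p = 0.00234, standard error 0.10), or 2.47-fold, on ILMN_2930897 and 1.25 (limma, adjusted p = 0.00344, standard error 0.15), or 2.39-fold, on ILMN_1236788. The deposited intensity of ILMN_2930897 was 667, 706 and 602 with scramble siRNA and 1431, 1481 and 1268 after knockdown, so that the rise was present before normalization. Over the 14 alternatives the change was 1.12 to 1.37 on ILMN_2930897 and 0.99 to 1.33 on ILMN_1236788.

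Igfbp4, an inhibitor of IGF action that the protease pappalysin cleaves, gave log2 signals of 9.87, 10.01 and 9.90 with scramble siRNA and 8.67, 8.92 and 8.56 after knockdown on probe ILMN_2694955. On the probe ILMN_1258988 they were 10.82, 11.42 and 11.18 with scramble siRNA and 10.02, 10.21 and 9.63 after knockdown. On ILMN_1258988 scramble replicate 2 was the highest and DJ-1 siRNA replicate 3 the lowest, and the groups stayed apart on both probes. The fall was -1.21 (limma, adjusted p = 0.00299, standard error 0.12) and -1.19 (limma, adjusted p = 0.00872, standard error 0.21), leaving 43.2% and 43.9% of the scramble signal. Across the alternatives the changes lay at -1.30 to -0.996 and -1.36 to -1.02.

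Igfbp5, the binding protein secreted by differentiating myoblasts, has 3 probes, and all fell. Probe ILMN_2682613 gave log2 signals of 15.14, 15.10 and 15.21 with scramble siRNA and 14.49, 14.49 and 14.40 after knockdown, ILMN_1254358 gave 14.96, 14.99 and 14.89 with scramble siRNA and 14.22, 14.22 and 14.03 after knockdown, and ILMN_2964324 gave 14.49, 14.44 and 14.50 with scramble siRNA and 13.62, 13.66 and 13.39 after knockdown. The scramble arrays of each probe lay within 0.11 of each other, and every DJ-1 siRNA array was lower. DJ-1 siRNA replicate 3 was the lowest array on all 3 probes. The changes were -0.69, -0.79 and -0.92 (standard errors 0.09, 0.10 and 0.11, adjusted p = 0.00421, 0.00400 and 0.00346 from limma), so that 61.9%, 58.0% and 53.0% of the scramble signal was left. The deposited intensity of ILMN_2682613 was 33421, 36146 and 34506 with scramble siRNA and 23401, 26225 and 20863 after knockdown. With arrays scaled to a common 75th percentile its change was -0.46.

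Igfbp3, the main carrier of IGFs in serum, has 2 probes, and both fell. Its log2 signals were 7.10, 7.65 and 7.60 with scramble siRNA and 6.78, 6.74 and 6.82 after knockdown on ILMN_1219335 and 6.37, 5.99 and 6.02 with scramble siRNA and 5.54, 5.54 and 5.60 after knockdown on ILMN_2727503. The DJ-1 siRNA arrays were close together and below the scramble arrays on both, and the falls were -0.67 (limma, adjusted p = 0.0234, standard error 0.16) and -0.57 (limma, adjusted p = 0.0196, standard error 0.13). The call of ILMN_1219335 held, of single arrays left out, only without scramble replicate 1 (changes of -0.85 to -0.57, adjusted p of 0.00655 to 0.0736 from limma). It was also lost with no filter (adjusted p = 0.0510 from limma) and with an unmoderated test, and its change was -0.35 without background correction. The call of ILMN_2727503 was lost without any 1 of the DJ-1 siRNA arrays (adjusted p of 0.0589 to 0.0704 from limma), with an unmoderated test, with a trend in the prior variance and without background correction, where the change was -0.18. With an offset of 50 its change was -0.36.

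The 2 remaining binding proteins showed smaller falls with background correction at an offset of 16. Without background correction the changes were -0.36 for Igfbp6 and -0.42 for Igfbp7, beside -0.35 and -0.18 on the Igfbp3 probes. Igfbp6, which binds IGF2 in preference to IGF1, gave log2 signals of 10.62, 10.73 and 10.51 with scramble siRNA and 10.13, 10.32 and 10.23 after knockdown, with a fall of -0.40 (limma, adjusted p = 0.0340, standard error 0.11). Its groups overlapped in the deposited intensities, its call held in 6 of 14 alternatives, and of single arrays left out it held only without scramble replicate 3 (changes of -0.45 to -0.34, adjusted p of 0.0468 to 0.123 from limma). The call of Igfbp6 was also lost with arrays scaled to the same 75th percentile instead (-0.30, adjusted p = 0.0824 from limma) and with no filter. Igfbp7, a relative with low affinity for IGFs, gave 14.87, 14.98 and 14.81 with scramble siRNA and 14.47, 14.57 and 14.37 after knockdown on ILMN_2764588, with a fall of -0.42 (limma, adjusted p = 0.0248, standard error 0.10). Its groups overlapped in the deposited intensities too. With the same scaling the change of Igfbp7 was -0.16 (adjusted p = 0.328 from limma), and the call was also lost with no filter (adjusted p = 0.0571 from limma). It was lost as well without scramble replicate 2 (-0.38), without replicate 1 of DJ-1 siRNA (-0.41) and without its replicate 3 (-0.36), where the adjusted p lay between 0.0687 and 0.0868 from limma. The other 4 Igfbp7 probes, ILMN_1245755, ILMN_2447512, ILMN_2634286 and ILMN_2762029, were not detected on any array, although the file assigns all 5 to the same transcript, and no change is given for them.

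Of the 15 called IGF axis probes, 8 were called in all 14 alternatives. These were both probes of Igfbp2, both of Igfbp4, the 3 of Igfbp5 and Igf1 ILMN_2769884. The other 7 lost the call in at least 1 alternative, 2 of the 3 probes not called gained it in some, and none of the 18 changed direction in any. Several alternatives alter only the test or the probes tested and leave the fold change as it is, so they could not change a direction.

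**Figure D3:**
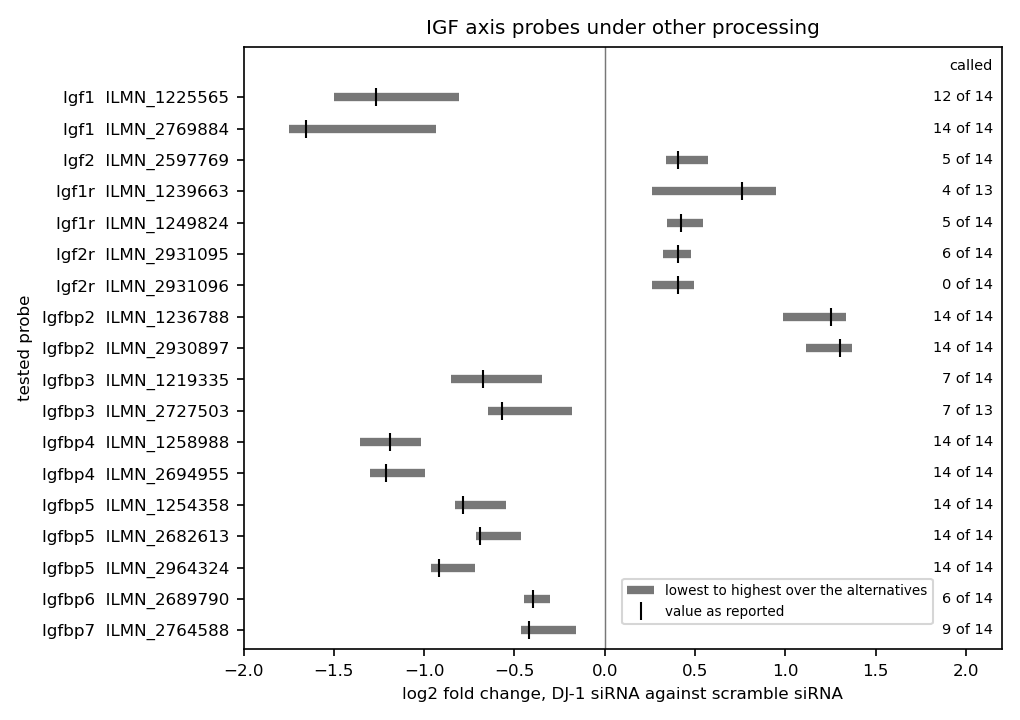
Lowest to highest log2 fold change of each tested IGF axis probe over the alternatives (grey bars, x axis), with a tick at the value as reported and, at the right, the number of alternatives in which the probe was called. No bar crosses 0, and the bars of Igf1, at -1.50 to -0.81 and -1.75 to -0.94, are among the widest.

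Other genes of the pathway were taken as a list of 49 genes with 105 probes, of which 54 probes of 36 genes were tested. Of the 54, 13 were called higher and 6 lower by limma, or 35.2% in all beside 30.1% of all tested probes, and the median change was 0.13. The count depended on the arrays and was 8 without scramble replicate 2, 12 without scramble replicate 3, and 6 and 8 without replicates 1 and 3 of DJ-1 siRNA, where 21.1%, 22.2%, 14.3% and 15.2% of all tested probes were called. It was 9 with an unmoderated test and 11 of 105 with no filter, where 20.5% and 7.77% of all probes were called. The median was 0.06 without background correction and 0.06 with no filter. Values in the next paragraphs are log2 fold changes, with adjusted p from limma, of called probes among the 15 with the smallest adjusted p.

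Among the 9 other carriers and proteases of the binding proteins, 5 genes were tested. The serine protease Htra1, which cleaves IGFBP5, rose by 0.50 and 0.52 on its probes (adjusted p = 0.0109 and 0.0137 from limma). Its probe ILMN_2746738 gave 12.22, 12.10 and 12.22 with scramble siRNA and 12.64, 12.67 and 12.75 after knockdown. The metalloprotease Adam12, which cleaves IGFBP3 and IGFBP5, was detected on all scramble arrays and on 2 DJ-1 siRNA arrays and had a change of -1.26 (limma, adjusted p = 0.0281, standard error 0.32), and how far it fell is uncertain. No probe of Igfals, Igfbp1 or Igfbpl1, further carriers, was detected on any array.

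Of the insulin receptor family and its adaptors, Insr and Insrr had no tested probe. The docking protein Irs2 rose by 0.64 (limma, adjusted p = 0.00760, standard error 0.11), with log2 signals of 8.03, 7.95 and 8.02 with scramble siRNA and 8.80, 8.53 and 8.60 after knockdown. Grb14, an adaptor that inhibits the insulin receptor, had a change of -0.75 (limma, adjusted p = 0.0366, standard error 0.21). Of the PI3K and Akt group, 2 of 15 tested probes were called, both higher, or 13.3%, where 16.5% of all tested probes were called higher and 30.1% in either direction.

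In the mTOR and translation group 3 of 12 tested probes were called, all higher, or 25%, where 16.5% of all tested probes were called higher and 30.1% in either direction. They were the translation repressor Eif4ebp1 (0.57, adjusted p = 0.0174 from limma), the mTORC2 subunit Rictor (0.68, adjusted p = 0.0171 from limma) and a probe listed as TSC1, for an inhibitor of mTORC1 (0.46, adjusted p = 0.0223 from limma). Of the Akt effectors, the transcription factor Foxo1 rose by 0.52 on ILMN_2656498 (adjusted p = 0.0105 from limma) and was at 0.15 on ILMN_2509340 (adjusted p = 0.417 from limma). In the Ras and ERK group 6 of 10 tested probes were called, 3 in each direction, where 16.5% of all tested probes were higher and 13.6% lower. The small GTPase Hras fell, with a change of -0.75 on ILMN_2481071 (adjusted p = 0.00627 from limma). The Igf2 mRNA-binding protein Igf2bp2 rose by 0.34 (adjusted p = 0.0345 from limma). A further 4 called probes, outside these 15 and named after their values were seen, were a further Hras probe at -0.61, Pappa (pappalysin) at -0.61 and the Mapk3 (ERK1) probes ILMN_1218551 at 0.61 and ILMN_2715744 at 0.76, the last of which was detected on 1 scramble array, so that its size is uncertain.

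**Figure D4:**
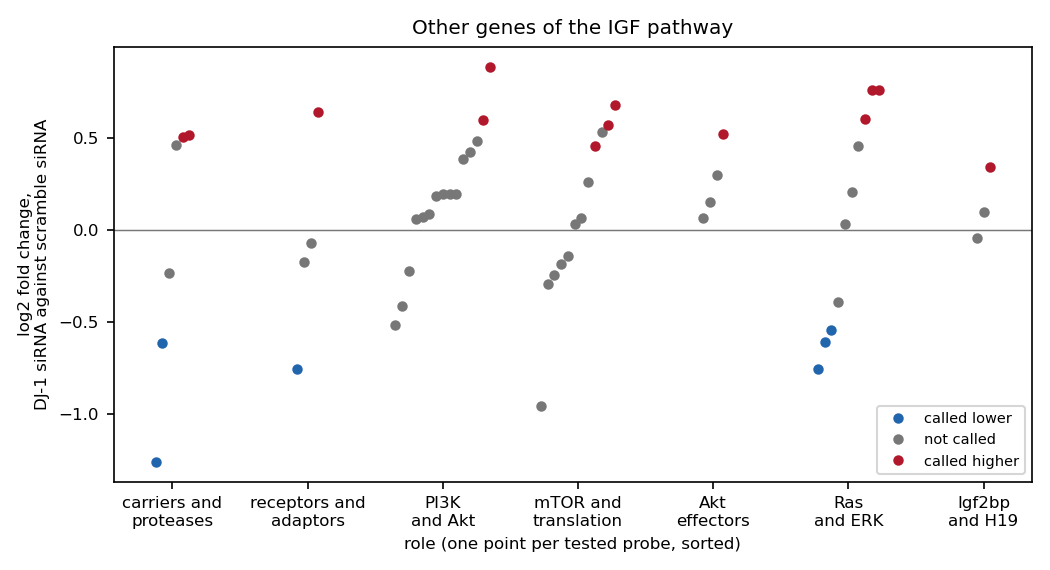
Log2 fold change of the 54 tested probes of the other pathway genes (y axis, DJ-1 siRNA against scramble siRNA, 3 arrays per group), grouped by role and sorted within each group, in red where called higher, blue where called lower and grey where not called. Called rises and falls occur side by side in some groups, with 13 red and 6 blue points, and most of the 54 are grey.

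The labelled cell type was checked against muscle differentiation markers, 23 genes with 34 probes. Of these, 32 probes of 22 genes were tested, and Myf5 had no tested probe. After knockdown 20 of the 32 were lower and none was higher by limma, where 13.6% of all tested probes were lower and 16.5% higher, and the median change was -0.58. The summed normalized signal of the list was 419298, 412136 and 409892 with scramble siRNA and 332599, 348719 and 314868 after knockdown. Its brightest gene, the skeletal actin Acta1, was at -0.01 (adjusted p = 0.977 from limma), with log2 signals of 15.21, 15.35 and 15.33 with scramble siRNA and 15.35, 15.38 and 15.15 after knockdown. The fast myosin heavy chain Myh4 was detected with scramble siRNA on 3 arrays and after knockdown on 1, with a fitted change of -3.72 (adjusted p = 0.00224 from limma), and the size of this fall is uncertain. The transcription factor Mef2c fell, with changes of -2.37 and -2.61 on ILMN_2732465 and ILMN_1214950 (adjusted p = 0.00277 and 0.00277 from limma). Without DJ-1 siRNA replicate 1 the number called lower was 13, where 6.55% of all tested probes were lower. The part of these markers in the changes of the IGF axis was not tested. In these bulk samples fewer cells of a type and less RNA per cell cannot be told apart.

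Of the cycling myoblast markers, 10 genes with 19 probes, 14 probes were tested and 3 were called, all lower. This was 21.4%, where 13.6% of all tested probes were called lower and 30.1% in either direction. The inhibitor of differentiation Id3 changed by -1.40, the cyclin Ccnb1 by -0.57 on ILMN_2659052 and Id1 by -0.57 (adjusted p = 0.00494, 0.0161 and 0.0260 from limma). The other Ccnb1 probe, ILMN_2753497, was at -0.31 (adjusted p = 0.166 from limma), with groups that overlapped, and was not called. The list median was 0.09, and its brightest gene, the kinase Cdk1, was at 0.30 (adjusted p = 0.0713 from limma). The summed signal was 8661, 9551 and 8815 with scramble siRNA and 8301, 9267 and 8451 after knockdown. Pax7 was not detected on any array. Only 1 probe was called when replicate 1 or replicate 3 of DJ-1 siRNA was left out, where 14.3% and 15.2% of all tested probes were. The list median was -0.002 without scramble replicate 1 and 0.04 when DJ-1 siRNA replicate 2 was left out. This median was 0.04 without background correction, 0.06 with no filter and 0.03 with the strict filter. The part of these markers in the changes of the IGF axis was not tested.

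Of the markers of other cell types, 23 genes with 44 probes, 9 probes were tested and 4 were called, all of them lower and all in the fibroblast list, where 13.6% of all tested probes were lower. The proteoglycan Dcn, also the brightest gene, fell, with changes of -1.79 and -1.34 (adjusted p = 0.00580 and 0.00598 from limma), and the collagen Col1a1 fell, with a change of -0.47 (adjusted p = 0.0238 from limma). The fourth was Pdgfra, named after its values were seen (-0.58, adjusted p = 0.0493 from limma). The list median was -0.47, but -0.23 without background correction and -0.05 with no filter. The summed signal was 10694, 10256 and 9700 with scramble siRNA and 4985, 6069 and 4407 after knockdown. The number called was 2 without scramble replicate 3 and also without replicate 1 or replicate 3 of DJ-1 siRNA, where 22.2%, 14.3% and 15.2% of all tested probes were called. No probe of the 5 adipocyte or 4 endothelial markers was tested, and Adipoq, Plin1, Cfd, Lum, Thy1, Runx2, Sp7, Ptprc, Csf1r and Kdr were not detected on any array. All samples were bulk cultures of the C2C12 line, and the part of these markers in the changes of the IGF axis was not tested.

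**Figure D5:**
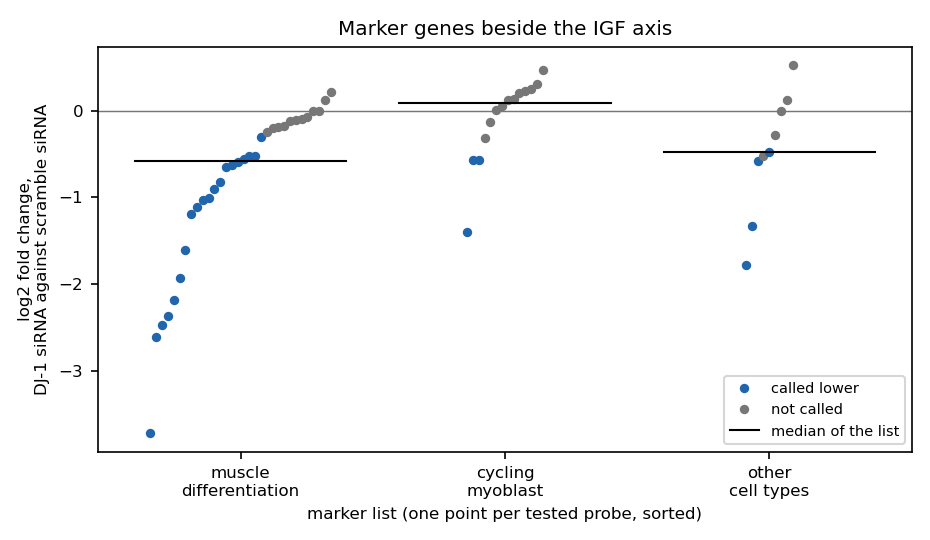
Log2 fold change (y axis, DJ-1 siRNA against scramble siRNA) of each tested probe of the muscle differentiation, cycling myoblast and other cell type marker lists, sorted within each list, in blue where called lower and grey where not called, with a line at each list's median. The medians are -0.58, 0.09 and -0.47, and no marker probe was called higher.

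The tested probes of other named genes whose signal was most like that of Igf2 over the 6 arrays were those of Slc9a3r2 (0.996), Zfp607b (0.992), Brdt (0.992), Nae1 (0.9901) and Bub1b (0.988), where the value is Pearson's r of the normalized log2 signal. For the brightest Igfbp5 probe, ILMN_2682613, they were those of Ttll5 (0.999), Cnot6l (0.998), Dph2 (0.998), Rbbp7 (0.997) and Psmb7 (0.997). The r exceeded 0.99 for 4 of 14880 probes with Igf2 and for 68 of 14878 with Igfbp5. These values are a description of 6 arrays that fall into the same groups, and a probe that differs between the groups shares that difference.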

How the data were processed

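RNA of C2C12 myotubes treated with scramble siRNA or DJ-1 siRNA (3 samples each) was hybridized to an Illumina Mouse WG-6 V2 BeadChip. For 45281 probes the authors deposited the mean intensity from GenomeStudio 2011.1, not normalized and with background left in, and the detection p-value. The bead standard error of the signal and the bead number were deposited beside them. In R 4.3.3 with limma 3.58.1, background was corrected by normexp (offset of 16, negative controls inferred from detection p), and arrays were quantile normalized on the log2 scale (function neqc). The 17890 probes with detection p under 0.05 on at least 3 arrays were fitted with lmFit and eBayes, with Benjamini-Hochberg adjustment over all of them and a threshold of 0.05. The scripts were tested on simulated data.

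Symbols came from the RefSeq table of GRCm38.p6 (32345 probes matched), otherwise from the file, which names no build. Named were every probe of the members and of Park7, called probes of the pathway list among the 15 with the smallest adjusted p, the 3 smallest adjusted p and the most abundant probe of each marker list, and the 5 most similar probes of Igf2 and Igfbp5. The members and the lists were chosen with earlier results of these data known. The alternatives were no background correction (signal floored at 1), an offset of 50, a shift to a common 75th percentile, no filter, a strict filter (detection p under 0.01 on all 6 arrays), a trend in the prior variance, an unmoderated equal-variance test per probe (the study's own array test was moderated), a block on replicate number and each array left out in turn.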

Additional observations from a re-analysis of the deposited data

How the results depend on the processing

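Park7 and 8 of the 15 called IGF axis probes were called in all 14 alternatives, and no IGF axis probe changed direction in any. No filter, the strict filter, the prior trend, the unmoderated test and the replicate block leave the fold change as it is. These settings could not change a direction. How often other tested probes kept their call or direction was not counted. With no filter the calls over all probes were 3519 in place of 5387, where 45281 probes were tested, and those of the pathway list 11 in place of 19. An unmoderated test called 9 pathway probes. Over all probes it called 7026 at an unadjusted p under 0.05 and 3674 after Benjamini-Hochberg, and 16 and 10 of the IGF axis probes. The strict filter gave 5 cycling marker calls of 12 tested, in place of 3 of 14. Over all tested probes the share called was 40.9% with this filter, in place of 30.1%. It could not test Igf1r ILMN_1239663 and Igfbp3 ILMN_2727503. Among other cell type markers 2 of 9 tested probes were called with the 75th percentile shift, in place of 4. With no filter 2 of 44 were called. These settings called 30.2% and 7.77% of all tested probes. With each array left out in turn, the calls were 2559 to 5271 over all probes, 8 to 14 for the IGF axis, 6 to 17 for the pathway list, 13 to 18 for muscle, 1 to 3 for cycling and 2 to 5 for other cell type markers. The cause of these shifts was not tested. With the replicate block the calls were 4350 over all probes, 12 for the IGF axis, 17 for the pathway list and 2 for other cell type markers. The block ended the calls of Igf2 (adjusted p = 0.0894 from limma), Igf2r ILMN_2931095 (adjusted p = 0.0664 from limma) and Igfbp6 (adjusted p = 0.0587 from limma). Deviations from the group means correlated at 0.0537, 0.0474 and 0.0199 between samples with the same replicate number, which does not pair them, although every sample correlated best with its own number. Signal near background limits Igf1 after knockdown, Igf1r ILMN_1239663, Igfbp3 and the probes not detected.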
